A study of Mus musculus with 18 samples.

Results

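The 10 genes described here carry the sensing of RNA and DNA in the cytosol, and were chosen by name among the 20615 genes of the table. The RNA sensors are *Ddx58* (RIG-I), *Ifih1* (MDA5) and *Dhx58* (LGP2), the first and second of which signal through *Mavs*. The DNA sensor *Mb21d1* (cGAS) signals through *Tmem173* (STING). *Zbp1* senses nucleic acids in the Z form, *Trex1* is a DNA exonuclease, and *Tbk1* and *Ikbke* are the kinases (TBK1 and IKKε) on which both arms converge. All 10 were in the table, and all 10 were among the 15789 genes that passed the filter on low counts.

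The samples were bone marrow-derived macrophages (BMDMs), grown from femur and tibia marrow of mice aged 7 to 12 weeks for 7 days with L929 supernatant as the source of M-CSF. They came from C57BL/6 (B6) mice and from C57BL/6.NOD-*Aec1Aec2* (SjSS) mice, a Sjögren's syndrome model with intervals of the NOD genome on the B6 background. BMDMs of each strain were left untreated (control), given 1 µM CpG oligonucleotide for 6 h, or given apoptotic cells (ACs) at 5 per BMDM for 2 h, followed by washing and 3 h more by the labels, with 3 samples in each of the 6 groups. The study's methods give a longer time after the wash for the RNA-seq, and the ACs were thymocytes killed with dexamethasone. The study counts its replicates as mice. Which strain's thymocytes each sample received, and whether samples with the same number within a strain came from the same mouse, is not given in the sources used here, so the p-values measure the spread between these samples. Untreated BMDMs were the control for both treatments, whose times of exposure differed.

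The estimated counts on genes summed to between 30688336 and 57139662 per sample, with a median of 47912525. The 8 macrophage markers, among them *Adgre1*, *Csf1r* and *Lyz2*, passed the filter and summed to between 15105 and 23748 CPM in every sample. Of 16 thymocyte and T cell markers, *Cd3d*, *Cd3e*, *Cd3g* and *Trac* had group means of at most 0.127 CPM and *Rag1* and *Dntt* of at most 0.163 CPM. The sum of the 16 ran from 10.7 to 88.1 CPM, most of it *Cd28* and *Cd4*, and was highest in the control samples. Of the 6 that passed the filter, *Cd28* and *Satb1* had lower group means with ACs than in the control of both strains. *Lck*, *Cd5* and *Tcf7* had higher ones in both strains, while *Cd4* was lower in B6 and higher in SjSS. *Rag1* was at 0 CPM in both controls, 0.163 in B6 AC and 0.0231 in SjSS AC samples. *Dntt* went from 0 to 0.123 CPM with ACs in B6 and did not rise in SjSS. The 4 fibroblast markers, mostly collagens, summed to 38.0 to 131 CPM in B6 and 147 to 231 CPM in SjSS samples under all treatments, and their part in the differences between strains was not tested. The markers of B cells, neutrophils, dendritic cells and natural killer cells summed to at most 2.74 CPM in any sample.

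As background, RIG-I and MDA5 are helicases that bind double-stranded RNA in the cytosol and assemble MAVS on mitochondria, and LGP2 is a related helicase without the signalling domains that adjusts them. cGAS binds double-stranded DNA and makes the cyclic dinucleotide cGAMP, which activates STING on the endoplasmic reticulum. MAVS and STING recruit TBK1 and IKKε, which phosphorylate IRF3, and the type I interferon that follows raises many of the sensors themselves. CpG acts on a receptor in the endosome, TLR9, and reaches interferon and inflammatory genes by another adaptor.

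The promoters are shown first for *Ddx58* and *Ifih1*, which alone among the members searched held an interferon-stimulated response element (ISRE) core. *Mavs*, also shown, held none and did not rise with ACs in SjSS BMDMs. RefSeq windows of the assembly GRCm38.p6, from 250 bases before to 50 after a start site, were matched for 7 of the 10 members, with 8 windows in all since *Trex1* has 2 start sites. *Dhx58*, *Zbp1* and *Tmem173* were not matched. The letters searched on both strands were GAAANNGAA for the ISRE core and GGNNTTTCC for a form of the NF-kB site. The stretches run 5′ to 3′ along each gene from base -150 to base 20, counted from the start site as 1, and capitals mark the ISRE core.
Ddx58: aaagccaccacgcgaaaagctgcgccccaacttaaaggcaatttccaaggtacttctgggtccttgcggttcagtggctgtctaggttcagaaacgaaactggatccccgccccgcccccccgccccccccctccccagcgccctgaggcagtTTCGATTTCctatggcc
Ifih1: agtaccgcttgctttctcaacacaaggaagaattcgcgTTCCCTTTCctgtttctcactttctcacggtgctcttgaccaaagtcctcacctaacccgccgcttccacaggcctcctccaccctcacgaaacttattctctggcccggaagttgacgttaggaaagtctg
Mavs: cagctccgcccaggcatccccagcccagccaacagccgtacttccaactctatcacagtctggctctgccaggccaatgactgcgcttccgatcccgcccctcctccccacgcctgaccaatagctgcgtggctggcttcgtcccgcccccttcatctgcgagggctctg
These stretches lie at chr4:40239806-40239975 (minus strand), chr2:62646236-62646405 (minus strand) and chr2:131233913-131234082 (plus strand).

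The *Ddx58* window held 1 ISRE core, at bases 4 to 12 on the strand opposite to the gene. The *Ifih1* window held 2, at bases -112 to -104 on the opposite strand and at bases 33 to 41 on the gene's strand, beyond the stretch shown. The windows of *Mavs*, *Mb21d1*, *Trex1*, *Tbk1* and *Ikbke* held none, and the NF-kB letters were in none of the 8 windows. Of these members without an ISRE core, all but *Mavs* were significantly higher with ACs in SjSS BMDMs. The rise was 6.41-fold for *Mb21d1*, 10.6-fold for *Trex1*, 1.57-fold for *Tbk1* and 3.79-fold for *Ikbke*. Among all 32851 windows of the same length, 8.56% held the ISRE core and 5.82% the NF-kB form. No factor's binding was measured, and a match describes the letters only.

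Levels are given as CPM, the estimated count relative to the library total scaled by edgeR's TMM factor, for replicates 1, 2 and 3 of a group. A difference is called where edgeR's quasi-likelihood test gave a Benjamini-Hochberg adjusted p under 0.05 and the log2 fold change exceeded 1.3 in size, and significant where the adjusted p alone was under 0.05. Where members with an unadjusted p under 0.05 are counted, the share of all tested genes under that rule was not computed. Those counts therefore have no comparison, since the shares printed near them are for the adjusted p. Gene coordinates are on mm10 as the table gives them, with ends a base past those of GENCODE M21 for most members. In bulk RNA, fewer cells that express a gene and less of its RNA per cell cannot be told apart.

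*Ifih1* (chromosome 2, 62595798 to 62646256, minus strand), which encodes the sensor of long double-stranded RNA MDA5, had the largest AC response of the 10 genes in SjSS BMDMs, 24.9-fold. Control samples of B6 had 43.8, 47.0 and 43.6 CPM of *Ifih1*, AC samples 96.7, 117 and 117 and CpG samples 128, 169.8 and 147. Control samples of SjSS had 50.5, 56.0 and 44.9 CPM, AC samples 1287, 1196 and 1277 and CpG samples 134, 94.4 and 139. The SjSS samples with ACs stood far above the other 15 samples, which lay between 43.6 and 169.8 CPM. The log2 fold change with ACs was 4.64 (standard error 0.14, edgeR adjusted p = 2.44e-15) in SjSS and 1.3003 (standard error 0.13, edgeR adjusted p = 1.48e-07) in B6 BMDMs. The response was therefore 10.1-fold larger in SjSS, an interaction of strain and AC of 3.34 (standard error 0.18, edgeR adjusted p = 8.91e-11). With CpG the log2 fold change was 1.73 in B6 and 1.28 in SjSS BMDMs, and its difference between the strains was -0.45 (95% interval -0.79 to -0.11, edgeR adjusted p = 0.147). The response to ACs in B6 lay on the fold threshold and was not called, at 1.25 to 1.299, without replicate 1 or 3 of the B6 control, 2 or 3 of the B6 AC or 3 of the B6 CpG samples.

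*Ddx58* (chromosome 4, 40203773 to 40239829, minus strand), the gene of RIG-I, which senses RNA with a 5′ triphosphate, showed the same order of groups with a smaller range. *Ddx58* stood at 44.4, 45.8 and 46.0 CPM in untreated B6 BMDMs, 77.1, 90.2 and 88.9 after ACs and 157, 224 and 184 after CpG. The SjSS samples stood at 52.3, 57.6 and 55.6 CPM untreated, 511, 478 and 534 after ACs and 158, 110.0 and 197 after CpG. In B6 every CpG sample was above every AC sample, while in SjSS every AC sample was above every CpG sample. With ACs the log2 fold change was 3.20 (standard error 0.16, edgeR adjusted p = 1.75e-12) in SjSS and 0.91 (standard error 0.15, edgeR adjusted p = 7.13e-05) in B6, an interaction of 2.29 (standard error 0.21, edgeR adjusted p = 6.65e-08). With CpG it was 2.05 (standard error 0.15, edgeR adjusted p = 8.17e-10) in B6 and 1.49 (standard error 0.15, edgeR adjusted p = 7.59e-08) in SjSS. The CpG responses differed by -0.56 (95% interval -0.96 to -0.15, edgeR adjusted p = 0.128), and without replicate 3 of the SjSS CpG samples by -0.77 (edgeR adjusted p = 0.0142).

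*Dhx58* (chromosome 11, 100694884 to 100704272, minus strand), the gene of LGP2, the helicase of this family that has no signalling domain, changed least of the RNA sensors with ACs in SjSS BMDMs. In B6 BMDMs the *Dhx58* level was 22.6, 22.8 and 24.2 CPM in the control samples, 45.3, 53.1 and 51.2 with ACs and 66.8, 95.7 and 77.9 with CpG. In SjSS BMDMs it was 24.5, 31.3 and 30.1 CPM in the control samples, 161, 169 and 172 with ACs and 68.3, 46.0 and 83.6 with CpG. The SjSS CpG samples spread widely, with replicate 2 lowest, as they did for *Ddx58*, *Ifih1* and *Zbp1*. ACs gave a log2 fold change of 2.55 (standard error 0.16, edgeR adjusted p = 8.67e-11) in SjSS and 1.10 (standard error 0.16, edgeR adjusted p = 1.89e-05) in B6, an interaction of 1.45 (standard error 0.22, edgeR adjusted p = 4.17e-05). With library totals alone, without a correction for composition, the interaction was 1.10 and no longer called. The response to CpG was 1.79 in B6 and 1.21 in SjSS BMDMs, where it was 1.41 and called without replicate 2 of the SjSS CpG samples. The CpG responses differed by -0.58 (95% interval -1.01 to -0.14, edgeR adjusted p = 0.14), and by -0.78 without replicate 3 of these samples (edgeR adjusted p = 0.024).

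*Mavs* (chromosome 2, 131234063 to 131248026, plus strand), the adaptor of these sensors on mitochondria, did not follow them. Control samples of B6 had 44.8, 45.6 and 46.1 CPM of *Mavs*, AC samples 49.1, 50.9 and 49.8 and CpG samples 39.2, 40.9 and 40.4. Control samples of SjSS had 57.1, 58.1 and 62.8 CPM, AC samples 40.6, 40.7 and 39.6 and CpG samples 43.7, 45.2 and 44.6. With ACs it fell in SjSS BMDMs, and all 3 AC samples lay below all 3 controls. The log2 fold change was -0.56 (standard error 0.05, edgeR adjusted p = 5.53e-09) in SjSS and 0.14 (standard error 0.05, edgeR adjusted p = 0.028) in B6 BMDMs, where 4 of the 18 single samples left out took it out of significance, replicates 1 and 2 of the control and 2 and 3 of the AC samples. The change in B6 was 0.06 with library totals alone (edgeR adjusted p = 0.356), and its adjusted p was 0.0676 with no filter and 0.0647 in a fit of these groups alone. The interaction was -0.69 (standard error 0.07, edgeR adjusted p = 1.24e-07), the lowest of the 10 genes. *Mavs* also fell with CpG, by 0.18 in B6 (edgeR adjusted p = 0.00291) and 0.42 in SjSS BMDMs (edgeR adjusted p = 3.99e-07) on the log2 scale.

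**Figure D1:**
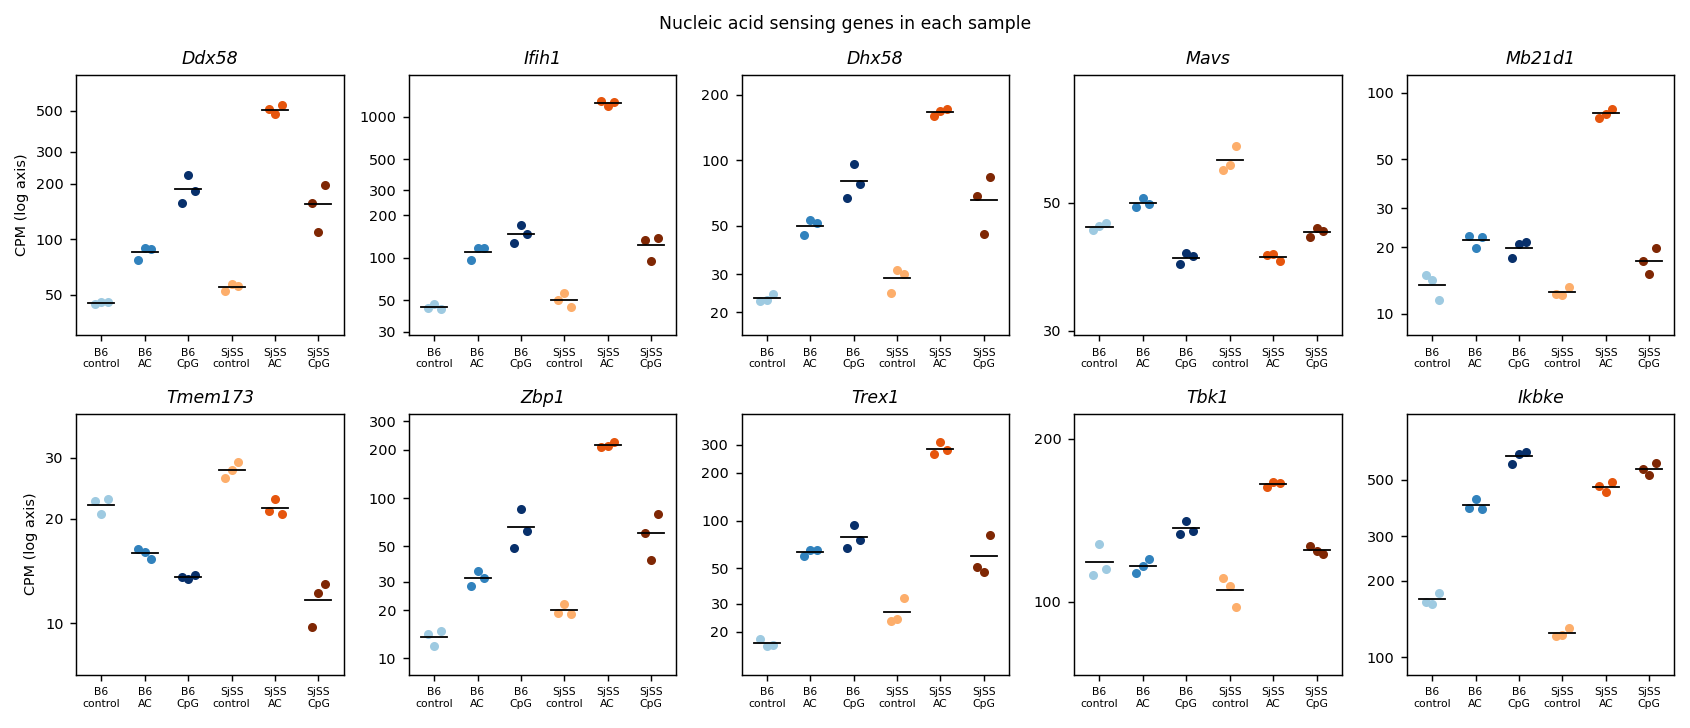
Level of each of the 10 genes in CPM (y, log axis) in the 6 groups (x), with 1 point per sample and a line at the mean of 3 samples. The SjSS AC samples are the highest for *Ddx58*, *Ifih1*, *Dhx58*, *Mb21d1*, *Zbp1*, *Trex1* and *Tbk1*, but not for *Mavs*, *Tmem173* and *Ikbke*.

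*Mb21d1* (chromosome 9, 78430526 to 78443238, minus strand), the gene of the cytosolic DNA sensor cGAS, rose 6.41-fold with ACs in SjSS BMDMs and by less with ACs in B6 or with CpG in either strain. *Mb21d1* stood at 15.02, 14.2 and 11.5 CPM in untreated B6 BMDMs, 22.4, 19.9 and 22.2 after ACs and 17.8, 20.6 and 21.1 after CpG. The SjSS samples stood at 12.3, 12.1 and 13.2 CPM untreated, 77.2, 80.4 and 84.2 after ACs and 17.4, 15.1 and 19.8 after CpG. The lowest SjSS AC sample was at 77.2 CPM, and no other sample exceeded 22.4 CPM. The log2 fold change with ACs was 2.68 (standard error 0.10, edgeR adjusted p = 5.99e-14) in SjSS and 0.66 (standard error 0.10, edgeR adjusted p = 3.44e-05) in B6, an interaction of 2.02 (standard error 0.14, edgeR adjusted p = 2.44e-09). With CpG it was 0.55 in B6 (edgeR adjusted p = 0.000118) and 0.47 in SjSS (edgeR adjusted p = 0.000719). The CpG responses differed by -0.08 with a 95% interval of -0.36 to 0.20, and the sign of this small difference turned without replicate 3 of the B6 control or replicate 2 of the SjSS CpG samples (0.03 and 0.01). *Gm8093* overlaps *Mb21d1* on the other strand, and its counts were at most 5.67% of those of *Mb21d1*.

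*Tmem173* (chromosome 18, 35733678 to 35740555, minus strand), which encodes STING, the receptor of cGAMP, fell under both treatments in both strains. In B6 BMDMs the *Tmem173* level was 22.5, 20.7 and 22.8 CPM in the control samples, 16.3, 16.1 and 15.3 with ACs and 13.5, 13.4 and 13.8 with CpG. In SjSS BMDMs it was 26.2, 27.7 and 29.3 CPM in the control samples, 21.0, 22.9 and 20.7 with ACs and 9.76, 12.3 and 12.97 with CpG. In each strain all treated samples were below all controls, and the lowest levels were those with CpG. CpG gave a log2 fold change of -1.25 (standard error 0.09, edgeR adjusted p = 4.11e-10) in SjSS and -0.70 (standard error 0.08, edgeR adjusted p = 8.46e-07) in B6, and the fall was larger in SjSS by 0.55 on the log2 scale (edgeR adjusted p = 0.00969). With ACs it fell by 0.37 in SjSS (edgeR adjusted p = 0.000898) and 0.47 in B6 (edgeR adjusted p = 0.000188). The AC responses of the strains differed by 0.10 (95% interval -0.13 to 0.33, edgeR adjusted p = 0.542), a sign that turned to -0.24 with library totals alone. Without replicate 3 of the SjSS CpG samples, the CpG response in SjSS was -1.34 and passed the fold threshold. *Mb21d1* and *Tmem173*, sensor and receptor of the same pathway, thus changed in opposite directions under both treatments in both strains.

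*Zbp1* (chromosome 2, 173206612 to 173218924, minus strand), whose protein binds Z-form nucleic acids and can start necroptosis through RIPK3, rose 10.7-fold with ACs in SjSS BMDMs. Control samples of B6 had 14.3, 12.0 and 14.9 CPM of *Zbp1*, AC samples 28.1, 35.2 and 31.6 and CpG samples 48.5, 85.9 and 62.4. Control samples of SjSS had 19.2, 21.8 and 18.9 CPM, AC samples 209, 210.3 and 222 and CpG samples 60.6, 40.9 and 79.7. As for *Ddx58*, the CpG samples were the highest in B6 and the AC samples in SjSS. With ACs the log2 fold change was 3.43 (standard error 0.20, edgeR adjusted p = 3.35e-11) in SjSS and 1.21 (standard error 0.20, edgeR adjusted p = 8.06e-05) in B6, an interaction of 2.22 (standard error 0.28, edgeR adjusted p = 3.71e-06). With CpG it was 2.25 in B6 and 1.60 in SjSS, both called, with a difference between strains of -0.65 (95% interval -1.19 to -0.11, edgeR adjusted p = 0.183), or -0.90 without replicate 3 of the SjSS CpG samples (edgeR adjusted p = 0.0357).

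*Trex1* (chromosome 9, 109057933 to 109059735, minus strand), the exonuclease that degrades DNA in the cytosol and so limits cGAS, was called higher with ACs in both strains. *Trex1* stood at 18.03, 16.2 and 16.6 CPM in untreated B6 BMDMs, 60.3, 65.8 and 64.9 after ACs and 67.2, 94.3 and 75.1 after CpG. The SjSS samples stood at 23.6, 24.0 and 32.5 CPM untreated, 263, 310.5 and 276 after ACs and 51.1, 47.3 and 81.7 after CpG. Treated samples did not overlap controls in either strain. ACs gave a log2 fold change of 3.40 (standard error 0.18, edgeR adjusted p = 4.14e-12) in SjSS and 1.91 (standard error 0.17, edgeR adjusted p = 6.06e-08) in B6, an interaction of 1.498 (standard error 0.24, edgeR adjusted p = 5.49e-05). With CpG the order of the strains was the opposite, 2.21 in B6 and 1.17 in SjSS, a difference of -1.05 (standard error 0.24, edgeR adjusted p = 0.0126). Without replicate 3 of the SjSS CpG samples this difference was -1.34 and passed the fold threshold, and the AC interaction was 1.15 and not called with library totals alone. The level in SjSS against B6 was 0.66 on the log2 scale in the controls and -0.39 with CpG (edgeR adjusted p = 0.0119 and 0.101). *Gm42641* overlaps *Trex1* on the same strand and held between 8.52% of the counts of both in a SjSS AC sample and 35.5% in a B6 control sample. With the counts of both added, a choice made after the data were seen, the interactions were 1.51 with AC and -0.88 with CpG, and the CpG response in SjSS was 1.00.

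*Tbk1* (chromosome 10, 121546455 to 121586795, minus strand), the kinase that phosphorylates IRF3 downstream of MAVS and STING, moved little. In B6 BMDMs the *Tbk1* level was 112, 128 and 115 CPM in the control samples, 113, 116 and 119.8 with ACs and 134, 141 and 135 with CpG. In SjSS BMDMs it was 110.5, 107 and 98.0 CPM in the control samples, 163, 167 and 166 with ACs and 127, 124 and 123 with CpG. The SjSS AC samples were the highest and were close together. The log2 fold change with ACs was 0.65 (standard error 0.05, edgeR adjusted p = 5.34e-09) in SjSS, whereas in B6 it was -0.02 (95% interval -0.13 to 0.08, edgeR adjusted p = 0.791) and turned to 0.04 without replicate 2 of the B6 control. The interaction was 0.67 (standard error 0.08, edgeR adjusted p = 1.34e-06). With CpG it rose by 0.21 in B6 (edgeR adjusted p = 0.00291, and 0.615 with library totals alone) and by 0.24 in SjSS (edgeR adjusted p = 0.000894).

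*Ikbke* (chromosome 1, 131254343 to 131279607, minus strand), the inducible kinase of the pair, was the member for which CpG gave the higher level in both strains. Control samples of B6 had 164, 162 and 179.6 CPM of *Ikbke*, AC samples 388, 420.0 and 384 and CpG samples 580.0, 632 and 645. Control samples of SjSS had 121, 122 and 129.9 CPM, AC samples 473, 448 and 491 and CpG samples 553, 522 and 584. The 3 groups of a strain did not overlap, in the order control, AC and CpG. CpG gave a log2 fold change of 2.16 (standard error 0.06, edgeR adjusted p = 4.05e-15) in SjSS and 1.87 (standard error 0.06, edgeR adjusted p = 1.81e-14) in B6, and with ACs 1.92 (standard error 0.06, edgeR adjusted p = 7.64e-15) in SjSS and 1.24 (standard error 0.06, edgeR adjusted p = 3.47e-11) in B6. The interaction with AC was 0.69 (standard error 0.09, edgeR adjusted p = 4.97e-06). Under ACs the SjSS level was above the B6 level by 0.24 on the log2 scale (edgeR adjusted p = 0.00304), a direction that turned to -0.06 (edgeR adjusted p = 0.452) with library totals alone.

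**Figure D2:**
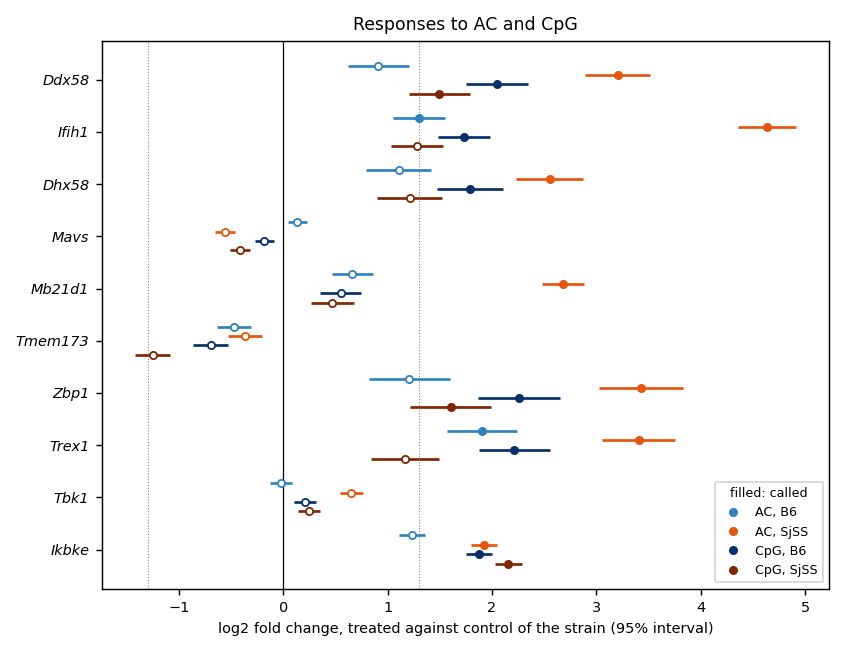
Log2 fold change of each gene (x, treated against control of the same strain, with 95% intervals) for ACs and CpG in B6 and SjSS, 3 samples per group. Filled points are called and dotted lines mark the fold threshold. *Ifih1* with ACs in SjSS lies farthest right at 4.64, and *Tmem173* lies left of 0 in all 4 comparisons.

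The response of each strain to ACs asks whether the sensors changed after exposure to ACs. In B6 BMDMs 2 of the 10 members, *Ifih1* and *Trex1*, were called higher, 8 were significantly higher and 1, *Tmem173*, significantly lower. Over the same comparison, 2.43% of all tested genes were called higher, and 20% and 18.3% were significantly higher and lower. In SjSS BMDMs 7 of 10 were called higher, namely *Ddx58*, *Ifih1*, *Dhx58*, *Mb21d1*, *Zbp1*, *Trex1* and *Ikbke*, while *Tbk1* was significantly higher and *Mavs* and *Tmem173* significantly lower. There, 7.09% of all tested genes were called higher, and 28.6% and 29.4% were significantly higher and lower. The median log2 fold change of the 10 was 1.007 in B6 and 2.62 in SjSS, against 0.00149 and -0.0166 over all genes tested. The 2 comparisons do not share control samples.

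The response to CpG gives another inflammatory stimulus. In B6 BMDMs 6 of 10 were called higher, namely *Ddx58*, *Ifih1*, *Dhx58*, *Zbp1*, *Trex1* and *Ikbke*, with 8 significantly higher and 2 lower, where 5.86% of all tested genes were called higher, and 28.1% and 29.8% were significantly higher and lower. In SjSS BMDMs 3 of 10 were called higher, *Ddx58*, *Zbp1* and *Ikbke*, again with 8 significantly higher and 2 lower, where 4.81% of all tested genes were called higher, and 27.8% and 26.4% were significantly higher and lower. The medians of the 10 were 1.76 in B6 and 1.19 in SjSS, against -0.0409 and -0.0138 over all genes. The count in SjSS rested on genes near the fold threshold. Without replicate 2 of the SjSS CpG samples 6 members were called, with *Ifih1* at 1.43, *Dhx58* at 1.41 and *Trex1* at 1.31. Without replicate 3 *Ddx58* was not called (1.28), without replicate 2 of the SjSS control *Ifih1* was called (1.36), and without replicate 3 of that control *Trex1* was (1.33).

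Between untreated BMDMs of the strains no member was called, 3 were significantly higher in SjSS and 2 lower. In that comparison, 1.3% of all tested genes were called higher, and 9.04% and 10.6% were significantly higher and lower, and 6 of the 10 members had an unadjusted p under 0.05. The log2 fold change, SjSS against B6, was 0.38 (standard error 0.05, edgeR adjusted p = 1.39e-05) for *Mavs*, 0.33 (standard error 0.08, edgeR adjusted p = 0.00802) for *Tmem173* and 0.66 (standard error 0.17, edgeR adjusted p = 0.0119) for *Trex1*. The kinases were lower in SjSS, *Ikbke* by 0.44 on the log2 scale (edgeR adjusted p = 6.24e-05) and *Tbk1* by 0.17 (edgeR adjusted p = 0.0345). *Tbk1* was not significant without replicate 2 of the B6 control or replicate 2 or 3 of the SjSS control (edgeR adjusted p = 0.213, 0.0641 and 0.169), nor *Trex1* without replicate 3 of the SjSS control (log2 fold change 0.49, edgeR adjusted p = 0.0866). *Zbp1*, at 0.54 (95% interval 0.14 to 0.93, edgeR adjusted p = 0.0689), became significant without replicate 1 or 2 of the B6 CpG or 2 or 3 of the SjSS CpG samples, which enter only through the shared spread. The sensors *Ddx58*, *Ifih1*, *Dhx58* and *Mb21d1* differed by between -0.11 and 0.30 with an adjusted p over the threshold, except that in a fit of the control samples alone *Ddx58* passed it (edgeR adjusted p = 0.0116). That fit also took *Zbp1* past it (0.55, edgeR adjusted p = 0.00653) and *Tbk1* out of significance (-0.16, edgeR adjusted p = 0.14). DESeq2 called no member in this comparison.

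Between AC treated BMDMs of the strains 6 of 10 members were called higher in SjSS, 9 were significantly higher and 1, *Mavs*, significantly lower. For comparison, 6.24% of all tested genes were called higher, and 24% and 25.5% were significantly higher and lower. The levels in SjSS were 11.4-fold those in B6 for *Ifih1*, 6.76-fold for *Zbp1*, 5.94-fold for *Ddx58*, 4.45-fold for *Trex1*, 3.75-fold for *Mb21d1* and 3.35-fold for *Dhx58*. The median log2 difference of the 10 was 1.83, against -0.0459 over all genes tested. The same 6 genes, and no other member, were called in the interaction of strain and AC, which subtracts the difference between the controls. In the interaction 8 members were significantly higher and 1 lower, where 4.76% of all tested genes were called higher, and 19.6% and 18.3% were significantly higher and lower. With library totals alone the median of all genes shifted by -0.41 in the AC response in SjSS and -0.34 in the interaction, and 4 of the 6 stayed called, *Ddx58*, *Ifih1*, *Mb21d1* and *Zbp1*. *Tmem173* between the strains with ACs, at 0.44, was then 0.14 and not significant.

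Between CpG treated BMDMs of the strains no member was called, and by edgeR *Mavs* alone was significant, at 0.15 (standard error 0.05, edgeR adjusted p = 0.033) with the level higher in SjSS. There, 1.82% of all tested genes were called higher, and 10.2% and 9.57% were significantly higher and lower, and 6 of the 10 members had an unadjusted p under 0.05. DESeq2 called none, but found *Ikbke* (-0.19, adjusted p = 0.0206), *Tbk1* (-0.16, adjusted p = 0.0258) and *Tmem173* (-0.24, adjusted p = 0.0469) significantly lower in SjSS. *Mavs* lost significance without any one of the 3 B6 CpG or the 3 SjSS CpG samples, with an adjusted p of up to 0.115 by edgeR, and its adjusted p was 0.0613 with DESeq2. Without replicate 3 of the SjSS CpG samples *Trex1* was significantly lower in SjSS (-0.68, edgeR adjusted p = 0.00145), as were *Ddx58* (-0.49), *Dhx58* (-0.48), *Tmem173* (-0.30) and *Ikbke* (-0.20), the last also without replicate 1 of the B6 CpG samples. The interaction of strain and CpG was significantly lower for 3 members, *Trex1*, *Tmem173* and *Mavs* (-0.24, edgeR adjusted p = 0.043), and called for none by edgeR or DESeq2, where 0.285% of all tested genes were called higher, and 3.23% and 2.62% were significantly higher and lower and 8 members had an unadjusted p under 0.05. *Ikbke* was at 0.28 in this interaction (edgeR adjusted p = 0.0678), and DESeq2 gave 0.26 (adjusted p = 0.0468). *Mavs* lost significance there on leaving out 16 of the 18 samples, singly, and with library totals alone (edgeR adjusted p = 0.137). It also did with no filter and in a fit of the groups compared (edgeR adjusted p = 0.0926 and 0.115). The interactions with AC and with CpG share their control samples.

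**Figure D3:**
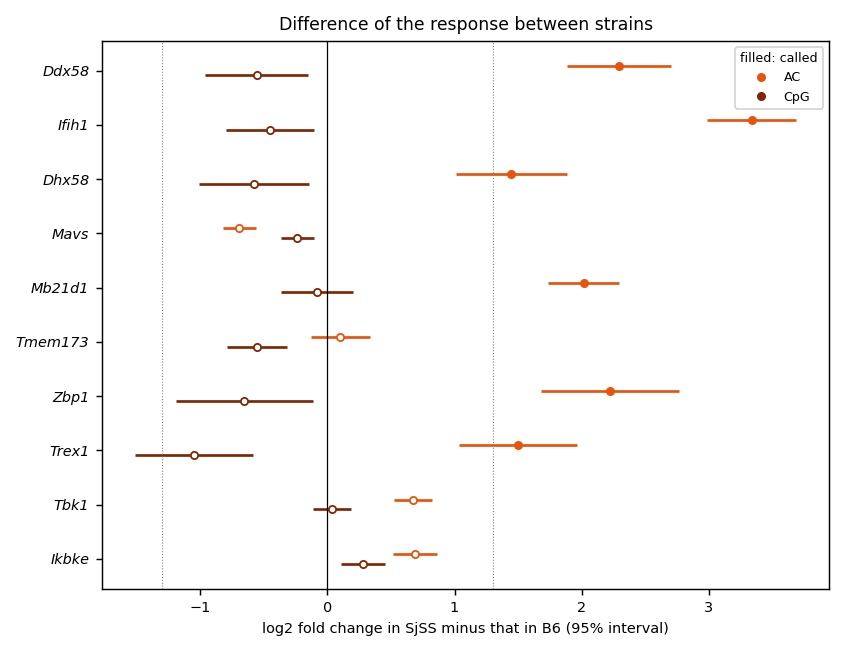
Difference between strains in the log2 fold change with ACs and with CpG (x, SjSS minus B6, with 95% intervals) for each gene, from 18 samples in 6 groups of 3. The AC values of *Ddx58*, *Ifih1*, *Dhx58*, *Mb21d1*, *Zbp1* and *Trex1* are filled (called), and the small positive AC value of *Tmem173* turns negative with library totals alone.

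ACs and CpG were also compared with each other within a strain, with no control samples involved and at unequal times of exposure. In B6 BMDMs no member was called by edgeR or DESeq2 and 6 were significantly lower with ACs than with CpG, namely *Ddx58* (-1.14 on the log2 scale), *Zbp1* (-1.05), *Dhx58* (-0.68), *Ikbke* (-0.64), *Ifih1* (-0.43) and *Tbk1* (-0.23). *Mavs* and *Tmem173* were significantly higher, where 3.64% of all tested genes were called higher, and 23.7% and 22.4% were significantly higher and lower and 8 members had an unadjusted p under 0.05. *Ifih1* was not significant without replicate 2 of the B6 CpG samples (edgeR adjusted p = 0.0544), nor *Tmem173* without replicate 1 or 2 of the AC or any one of the 3 CpG samples, and *Trex1* became significant without replicate 3 of the SjSS CpG samples (-0.31). In SjSS BMDMs 6 were called higher with ACs, *Ifih1* (3.36), *Trex1* (2.24), *Mb21d1* (2.21), *Zbp1* (1.82), *Ddx58* (1.71) and *Dhx58* (1.34, and 1.14 without replicate 2 of the CpG samples). In all 8 were significantly higher and 2, *Ikbke* and *Mavs*, lower, where 5.38% of all tested genes were called higher, and 25.7% and 26.5% were significantly higher and lower. *Mavs* was not significant there without replicate 3 of the AC or replicate 2 of the CpG samples (edgeR adjusted p = 0.0644 and 0.0573).

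For *Ddx58*, *Ifih1*, *Dhx58*, *Zbp1* and *Tbk1* the stimulus with the higher level thus differed between the strains, with a significant difference in each. It was CpG in B6 and ACs in SjSS, by less for *Tbk1* (AC against CpG -0.23 and 0.41). *Mavs* went the other way, at 0.32 in B6 and -0.14 in SjSS. The difference of the AC and CpG levels between strains, a comparison added after the values were seen, was 3.79 (standard error 0.18, edgeR adjusted p = 7.62e-12) for *Ifih1*, 2.87 (standard error 0.27, edgeR adjusted p = 7.25e-08) for *Zbp1*, 2.85 (standard error 0.21, edgeR adjusted p = 2.48e-09) for *Ddx58* and 2.02 (standard error 0.22, edgeR adjusted p = 4.94e-07) for *Dhx58*. In all, 6 of 10 members were called higher in this comparison, the others being *Trex1* and *Mb21d1*, with 9 significantly higher and 1, *Mavs*, lower, where 5.17% of all tested genes were called higher, and 19.2% and 19.9% were significantly higher and lower.

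The other genes of the pathway were grouped into 6 lists by role. These lists were chosen with earlier results of these data known, so their counts beside the shares of all genes are a description only. Among cofactors of RNA sensing, 0 of 17 measured genes were called higher with ACs in B6 and 6 of 17 in SjSS BMDMs, where 10 were significantly higher and 3 lower, against 2.43% of all tested genes in B6 and 7.09% in SjSS called higher and 28.6% and 29.4% significantly higher and lower in SjSS. With ACs in B6 7 were significantly higher and 0 lower, beside 20% and 18.3% of all tested genes. In SjSS the largest changes were those of *Ddx60* (log2 fold change 2.45), a helicase that promotes RIG-I signalling, *Trim25* (2.18), a ubiquitin ligase of RIG-I, and *Eif2ak2* (2.12), the kinase PKR. In B6 these were at 0.37 (edgeR adjusted p = 0.0803), 0.66 and 0.31. *Trim25* stood at 931 ± 38.5 CPM (SD, n = 3) in SjSS with ACs and 191 ± 21.2 CPM with CpG, against 205 ± 18.4 CPM in the control. With CpG none of the 17 was called by edgeR, beside 5.86% of all tested genes called higher in B6 and 4.81% in SjSS. In B6 11 were significantly higher and 1 lower, beside 28.1% and 29.8% of all tested genes. In SjSS 9 were significantly higher and 1 lower, beside 27.8% and 26.4%.

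Genes of DNA sensing and cGAMP transport changed in both directions, with 1 of 20 called higher with ACs in B6 and 2 of 20 in SjSS, and 7 significantly higher and 9 lower in SjSS. Over all tested genes the shares called were 2.43% and 7.09%, and 28.6% and 29.4% were significantly higher and lower in SjSS, so the count called was near that of all genes. In B6 4 of the 20 were significantly higher and 6 lower, beside 20% and 18.3% of all tested genes. The largest changes were those of *Usp18* (5.15 in SjSS and 2.91 in B6), a protease that removes ISG15 and is itself induced by interferon, *Lrrc8c* (2.44 and 0.67), a subunit of volume-regulated anion channels, and *Aim2* (1.28 and -0.39), the DNA sensor of an inflammasome. *Aim2* thus rose with ACs in SjSS and fell in B6 BMDMs, with an interaction of 1.68 (edgeR adjusted p = 2.78e-09). Among genes of nucleic acid breakdown and editing 0 of 14 were called higher in B6 and 5 of 14 in SjSS, beside 2.43% of all tested genes in B6 and 7.09% in SjSS. They were led by *Dnase1l3* (3.00 in SjSS, on 31 control and 225 AC counts over 3 samples), a secreted DNase, *Pnpt1* (2.02), a mitochondrial RNA nuclease, and *Adar* (1.76), which edits adenosine in double-stranded RNA. In B6 3 of the 14 were significantly higher and 4 lower, beside 20% and 18.3% of all tested genes. In SjSS 7 were significantly higher and 2 lower, beside 28.6% and 29.4%.

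Of adaptors of the kinases and IRFs, 1 of 15 were called higher with ACs in B6 and 4 of 15 in SjSS, beside 2.43% of all tested genes in B6 and 7.09% in SjSS. In B6 8 were significantly higher and 0 lower, beside 20% and 18.3% of all tested genes. In SjSS 10 were significantly higher and 4 lower, beside 28.6% and 29.4%. *Irf7*, the interferon regulatory factor that amplifies type I interferon, was called in both strains (2.81 in SjSS and 2.57 in B6) with an interaction of 0.24 (edgeR adjusted p = 0.505). *Tank* (2.21 and 0.48), a scaffold of TBK1 and IKKε, and *Optn* (1.66 and 0.76), a ubiquitin receptor that binds TBK1, followed. Of the 6 partners of ZBP1 in cell death, *Mlkl*, the effector of necroptosis, was called in SjSS (2.12, from 15.1 ± 1.14 to 65.4 ± 2.80 CPM) and not in B6 (0.61), an interaction of 1.51 (edgeR adjusted p = 3.28e-08). The kinase gene *Ripk3* was at 0.36 in SjSS (edgeR adjusted p = 0.000701), *Casp8* at 0.67, and *Ripk1*, *Fadd* and *Casp6* fell, by 0.30, 0.53 and 0.53 on the log2 scale.

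In the list of interferon output, interferon and genes it induces, 10 of 10 measured genes were called higher with ACs in B6 and 10 of 10 in SjSS. Over all tested genes the shares were 2.43% in B6 and 7.09% in SjSS, and the medians of the list were 3.42 and 6.55 on the log2 scale. Which pathway raised these genes was not tested. The study itself lists *Ifnb1*, *Ifit1*, *Rsad2* and *Cxcl10* among genes raised by ACs in SjSS BMDMs, so the list was not independent of these data. In SjSS *Cxcl10* changed by 10.99, *Rsad2* by 7.98 and *Ifit1* by 7.65, and in B6 by 7.24, 4.51 and 4.69. *Ifnb1*, named after its values were seen as the interferon gene measured, had 5 counts over the 3 B6 control and 26 over the 3 B6 AC samples, 15 over the SjSS control and 694 over the SjSS AC samples. It was at 5.32 ± 0.422 CPM (SD, n = 3) in SjSS with ACs and 0.109 ± 0.0573 CPM with CpG. Its interaction of strain and AC was 3.17 (edgeR adjusted p = 0.064) and was not significant, whereas the other 9 genes were significantly higher in that interaction and 8 were called, beside 4.76% of all tested genes. Without treatment 7 of the 10 were significantly higher in SjSS, with a median of 1.02 on the log2 scale, beside 9.04% of all tested genes. In the interaction with CpG 7 of the 10 were significantly lower, beside 2.62% of all tested genes. With CpG 9 of 10 of these genes were called higher in B6 and 8 of 10 in SjSS, beside 5.86% and 4.81% of all tested genes.

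**Figure D4:**
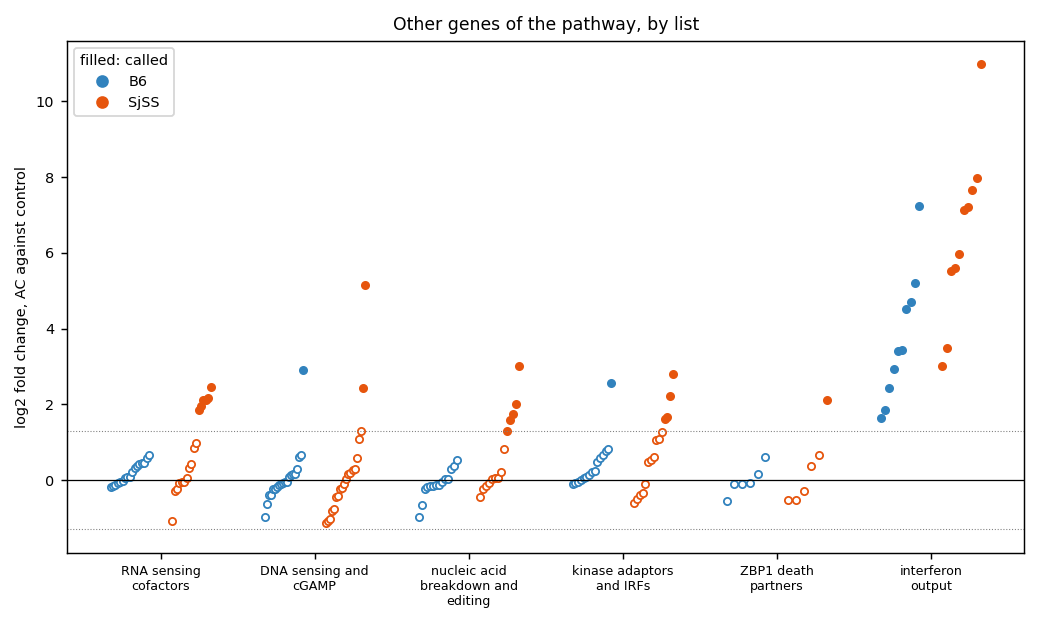
Log2 fold change with ACs (y) of every measured gene of the 6 lists (x) in B6 and SjSS BMDMs, sorted within a list. Filled points are called and dotted lines mark the fold threshold. All 10 interferon output genes are filled in both strains, and in the other lists the filled points are mostly those of SjSS.

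Levels can be compared between genes only per length, so CPM was divided by the length in kb of the longest coding transcript in GENCODE M21. On this scale *Ikbke* had the highest mean level of the 10 in control BMDMs, 51.9 ± 2.90 CPM per kb in B6 and 38.2 ± 1.58 in SjSS (SD, n = 3). *Tbk1* followed at 39.1 ± 2.71 and 34.8 ± 2.13 CPM per kb, which in SjSS left a narrow gap, with 37.1 as the lowest *Ikbke* and 36.5 as the highest *Tbk1* sample. *Mb21d1* was the lowest in both strains at 3.35 ± 0.455 and 3.10 ± 0.143 CPM per kb. In SjSS with ACs the order was *Trex1* at 261 ± 22.6, *Ifih1* at 229 ± 9.19, *Ikbke* at 145 ± 6.62 and *Ddx58* at 131 ± 7.30 CPM per kb, and *Ifih1*, next to last in the SjSS control, was the second. *Trex1* and *Ifih1* samples did not overlap there, whereas in the SjSS control the ranges of *Tmem173*, *Dhx58*, *Zbp1* and *Ifih1*, which followed each other, did for each neighbouring pair. The order rested partly on the length. On that of all exons of a gene, an alternative added after the data were seen, *Tbk1* led in control BMDMs, at 30.3 ± 2.10 against 18.7 ± 1.04 CPM per kb for *Ikbke* in B6 and 26.9 ± 1.65 against 13.8 ± 0.568 in SjSS, where *Trex1* and *Mavs* also lay above *Ikbke*. On it *Ikbke* lay below *Ddx58* in SjSS with ACs (52.2 ± 2.39 against 72.0 ± 4.01), and *Trex1* and *Ifih1* still led there, at 247 ± 21.3 and 154 ± 6.16 CPM per kb. On the transcript length *Mavs* was next to last in SjSS with ACs and *Tmem173* lowest, at 13.2 ± 0.192 and 9.36 ± 0.511 CPM per kb. With CpG *Ikbke* led in both strains, at 190.4 ± 10.5 and 170.0 ± 9.58 CPM per kb, but on that of all exons in B6 it stood level with *Trex1* (68.6 ± 3.80 and 68.7 ± 12.1).

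**Figure D5:**
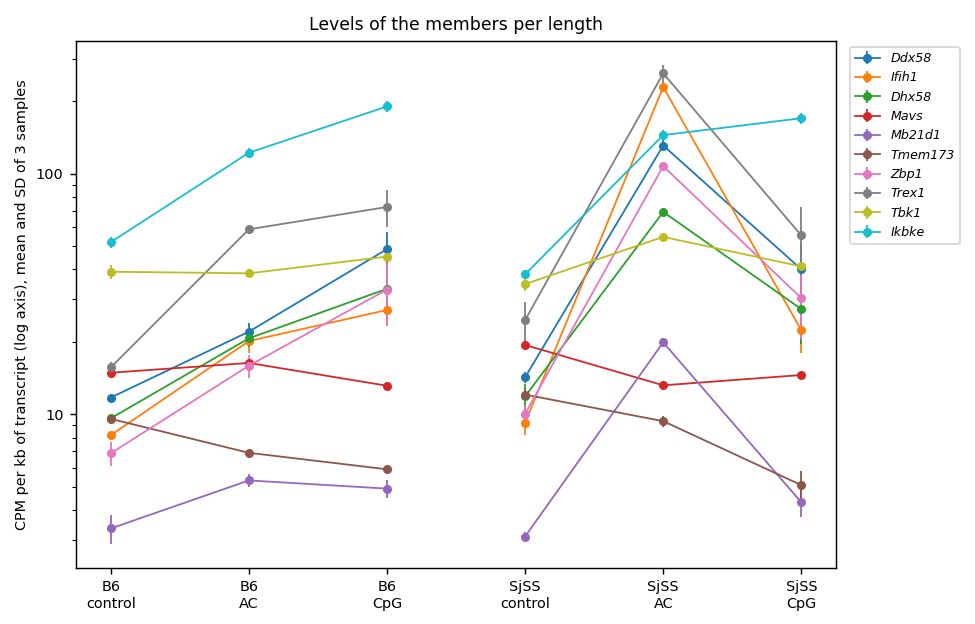
Mean level of each gene in CPM per kb of transcript (y, log axis) by group (x), with SD bars over 3 samples and lines joining the groups of a strain. *Trex1* and *Ifih1* rise to the top in SjSS with ACs at 261 and 229, while *Mavs* and *Tmem173* decline.

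The pattern over the 6 group means was compared between genes by the root mean square (RMS) difference in centred log2 CPM. Among the members *Ddx58* and *Zbp1* were the nearest pair, with an RMS difference of 0.151, followed by *Ddx58* and *Dhx58* at 0.266, and *Ifih1* and *Mavs* were the farthest apart at 1.71. Among all other tested genes, the nearest were Gm4070 and Herc6 to *Ddx58* (RMS 0.0875 and 0.0983), Ccrl2 and Nt5c3 to *Ifih1* (0.195 and 0.206), and Ifi35 and Znfx1 to *Dhx58* (0.0518 and 0.0908). They were Phf11d and Ifi44 for *Zbp1* (0.115 and 0.122), Oas1b and Parp14 for *Trex1* (0.0914 and 0.182), and Clic4 and Zcchc2 for *Mb21d1* (0.0886 and 0.111). For *Ikbke* they were Igsf6 and Dst (0.0689 and 0.0899), for *Mavs* B4galt7 and Zgpat (0.0468 and 0.0479) and for *Tbk1* Eci2 and Armc8 (0.0304 and 0.039). The nearest to *Tmem173* was Cyp4f18 (0.098). The nearest gene to *Ifih1* was farther than the nearest to any other member, over a range of 4.81 on the log2 scale, the widest of the 10. The values describe 6 group means from the same libraries.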

How the data were processed

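RNA of 18 mouse BMDM samples was measured by RNA-seq. The authors aligned reads to mm10 with STAR and quantified genes with Partek's E/M method, and deposited estimated counts, not normalized, in 1 table of 20615 genes, of which 41.1% of values were not whole. The E/M method can divide reads between overlapping genes. Strandedness is not given in the sources used here. Groups and replicate numbers came from the labels. The estimated counts were rounded, filtered by edgeR's filterByExpr (15789 genes left) and scaled by TMM, and 1 mean for each of 6 groups was fitted to all 18 samples with edgeR 4.0.16 (glmQLFit, glmQLFTest) in R 4.3.3. P-values were adjusted by Benjamini-Hochberg over all tested genes within each comparison. The standard error is the log2 fold change divided by the square root of F. The thresholds are those of the study's methods. There were 11 planned comparisons and 1 added later. The members, gene lists and tests were chosen with earlier results of these data known. All 10 members were named in every comparison, and for each list the 3 genes with the largest log2 fold change in size among those significant with ACs in SjSS, or any gene of the list of 6. The alternatives were DESeq2 1.42.0, DESeq2's size factors, library totals, other filters and fold thresholds, the groups compared alone, the replicate number as a block and each sample left out. The scripts were tested on simulated counts. Of the lists, *March5*, *Trex2*, *Ifna2* and *Ifna4* were in no row used here, and *Rnf125* was under the filter. A motif and a gene with a pattern like a member are not reported here. Figures were drawn with Python and matplotlib.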

Additional observations from a re-analysis of the deposited data

Results flagged for a closer look

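The responses of the strains differed by a test of the difference itself, edgeR's interaction of strain and treatment, with an adjusted p under 0.05 and 3 samples in each group. With ACs the log2 fold change in SjSS minus that in B6 was 2.29 for *Ddx58*, 3.34 for *Ifih1*, 1.45 for *Dhx58*, 2.02 for *Mb21d1*, 2.22 for *Zbp1*, 1.498 for *Trex1*, 0.67 for *Tbk1* and 0.69 for *Ikbke*. It was -0.69 for *Mavs*, which fell with ACs in SjSS, while its change in B6 was 0.14 and lost significance with library totals alone, with all 3 SjSS AC samples below and all 3 B6 AC samples above their controls. With CpG it was -1.05 for *Trex1*, -0.55 for *Tmem173* and -0.24 for *Mavs*. *Trex1* thus responded more in SjSS to ACs and more in B6 to CpG. Its level in SjSS against B6 was 0.66 in the controls and -0.39 with CpG (edgeR adjusted p = 0.0119 and 0.101). The control difference was 0.49 (edgeR adjusted p = 0.0866) without replicate 3 of the SjSS control. The CpG value of *Mavs* lost significance on leaving out 16 of the 18 samples, singly. It also did with library totals alone, with no filter and in a fit of the groups compared. Groups of 3 samples were not tested for outlying samples.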

How the results depend on the processing

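The number of members called was the same, or within 1.5 times, under most alternatives. With no fold threshold it rose to 9 for ACs in B6, 10 for CpG in B6, 10 for CpG in SjSS, 5, 10 and 1 between the strains in control, AC and CpG samples, 3 in the interaction with CpG, and 8 and 10 for ACs against CpG in B6 and SjSS. With a log2 fold change over 2 it was 0 for ACs in B6, 3 and 1 for CpG in B6 and SjSS, and 3 for ACs against CpG in SjSS. For ACs in B6 it was 1 with library totals alone, 1 with no filter and 1 in a fit of the groups compared, by the passage of *Ifih1* under the threshold.

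With each sample left out in turn it ran from 1 to 2 for ACs in B6, 3 to 6 for CpG in SjSS and 0 to 1 in the interaction with CpG. Of 3102 alternative log2 fold changes, 3007 kept the direction and the side of the adjusted p threshold, and 23 changed a call.

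Signs turned in 9 of these, for the values that follow. With library totals alone *Ikbke* between strains with ACs was -0.056 and *Tmem173* in the interaction with AC was -0.24. With each sample left out in turn *Tbk1* with ACs in B6 ran from -0.059 to 0.036, *Zbp1* between strains with CpG from -0.37 to 0.12, and *Mb21d1* and *Tbk1* in the interaction with CpG from -0.18 to 0.028 and from -0.023 to 0.073. Their causes were not tested. In the interaction with CpG DESeq2 made *Ddx58* and *Ikbke* significant (adjusted p = 0.0434 and 0.0468), and library totals alone *Ikbke* (0.0341, edgeR).

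Replicate numbers were shared between groups, but same-numbered samples of a strain had correlations of 0.0198 to 0.264 in their deviations from the group means, against -0.252 to 0.0745 for other numbers, and 32 of 36 checks matched a sample best to its own number. With the replicate block 1 member was called for ACs in B6 and the other counts were the same. The block made *Ikbke* significant between strains with CpG (-0.16, edgeR adjusted p = 0.0479) and in the interaction with CpG (0.28, edgeR adjusted p = 0.0445). A block within strain, added after the data were seen, was fitted only for the 9 comparisons that balance within each strain, and in the interaction with CpG made *Ikbke* (edgeR adjusted p = 0.0249) and *Ddx58* (0.045) significant. With 3 samples a group, differences near the fold threshold could not be settled.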

Other observations

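Genes near *Ikbke* on chromosome 1 differed between untreated BMDMs of the strains more often than genes near the other members. Of 101 tested genes within 5 Mb on either side of *Ikbke*, 37 (36.6%) were significant and 14 called by edgeR. Over all tested genes 9.04% were significantly higher and 10.6% lower in SjSS, and 1.3% were called higher. Near the other members the share ran from 11.8% at *Zbp1* to 21% at *Mavs*, with at most 2 called. The shares are given as a description and were not compared by a test, and neighbouring genes are not independent.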
